A study of Homo sapiens and Mus musculus with 55 samples.

Results

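The genes described here encode the subunits of oxidative phosphorylation, the mitochondrial system that burns reducing equivalents to make ATP. They were chosen by gene symbol: rows named NDUFA, NDUFB, NDUFC, NDUFS or NDUFV with a number, SDHA to SDHD, UQCR, CYC1, COX4 to COX8, ATP5, and the mitochondrially encoded MT-ND, MT-CO, MT-ATP and MT-CYB rows. Names ending as numbered pseudogenes were dropped, and a mean of at least 10 over the libraries of a table was required. In all, 101 of 26426 gene names passed in at least 1 of 10 tables. They comprise 83 nuclear-encoded names, 13 mitochondrially encoded names, and 5 pseudogene-named rows (COX6CP1, ATP5HP4, UQCRBP1, ATP5EP2 and COX7CP1) that the symbol rule did not remove. The 5 rows passed in the Tax-R tables alone, none was called there, and they are kept out of every count. Of the nuclear names 73 passed in every table, and each table held 77 to 80 of them. NDUFA13, at a mean of 11.3 in the MDA-MB-436 open reading frame (ORF) table, lay nearest above the limit, and NDUFA7, at 7.21 in the SUM159PT ORF table, nearest below it. The limit passes a gene that is high in a single group, so the counts refer to the rows that passed it.

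Electrons from NADH enter the respiratory chain at complex I and those from succinate at complex II. Coenzyme Q carries them to complex III and cytochrome c to complex IV, where oxygen is reduced. Complexes I, III and IV pump protons, and complex V, the ATP synthase, uses the gradient. Most subunits are encoded in the nucleus and imported. A small core of complexes I, III, IV and V is encoded by mitochondrial DNA and transcribed there as long precursors that are cut into separate messengers. The transcription factor MYC is known for driving ribosome and mitochondrial biogenesis, and STING is an adaptor that senses cyclic dinucleotides made when DNA reaches the cytosol.

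The study sequenced RNA from 55 libraries of 4 mammary tumour cell lines, and its title names repression of STING by MYC in triple-negative breast cancer as the subject. Both human lines, MDA-MB-436 and SUM159PT, come from triple-negative breast cancers, while 4T1 and Py230 come from mouse mammary tumours. For each human line, 2 Tax-R libraries were set against 2 parental (Par) libraries. In both Tax-R lines 2 libraries each of MYC siRNA-1 and MYC siRNA-2 were set against 2 control siRNA libraries. In 4T1 the groups with these siRNA labels had 3 libraries each. For the STING sgRNA each human line had a pair of groups, C1 and C2, with 2 libraries per group, set against 2 of mock genotype (Par_for_CRISPR). A STING ORF was set against a GFP ORF with 2 libraries each, and all of these cells also carried the STING sgRNA. In Py230, 3 doxycycline libraries were set against 3 vehicle libraries, both with the Sting1 shRNA genotype. No library with a control shRNA and doxycycline was analysed here, so effects of doxycycline and of the shRNA cannot be told apart. The labels do not define Tax-R, C1 or C2, and do not say whether replicates came from separate cultures. The p-values therefore measure the spread between these libraries, which may be technical.

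Because several of the results concern subunits moving together, the promoters of 7 human members are shown. They were read from RefSeq, build GRCh38.p14, as windows of 300 bases with 250 bases before and 50 after the transcription start, 5′ to 3′ on the gene's strand. Capitals mark 4 short words searched on both strands: GCATGCG, part of the NRF1 recognition site, CACGTG, the E-box bound by MYC, CCGGAAG, bound by ETS factors such as GABP, and AAGATGG, bound by YY1. ATP5G2, NDUFS1, UQCRC2 and UQCRFS1 were lower in all 3 comparisons with MYC siRNA, and ATP5G1 was lower in both human ones. NDUFA5 was higher with MYC siRNA in both human lines and lower in both Tax-R lines, and COX7B2 was much lower in both Tax-R lines. ATP5G1 (ATP5MC1, the ATP synthase rotor c subunit) lies at chr17:48892537-48892836, plus strand, ATP5G2 (ATP5MC2, another c subunit gene) at chr12:53676034-53676333, minus strand, NDUFS1 at chr2:206159395-206159694, minus strand, UQCRC2 at chr16:21953111-21953410, plus strand, UQCRFS1 at chr19:29213102-29213401, minus strand, NDUFA5 at chr7:123557769-123558068, minus strand and COX7B2 at chr4:46909196-46909495, minus strand.
ATP5G1: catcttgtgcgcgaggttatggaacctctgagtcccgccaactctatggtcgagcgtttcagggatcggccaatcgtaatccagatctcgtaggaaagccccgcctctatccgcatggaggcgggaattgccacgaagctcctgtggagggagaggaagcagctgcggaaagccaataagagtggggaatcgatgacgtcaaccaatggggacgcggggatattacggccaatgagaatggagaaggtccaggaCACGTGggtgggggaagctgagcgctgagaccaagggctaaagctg
ATP5G2: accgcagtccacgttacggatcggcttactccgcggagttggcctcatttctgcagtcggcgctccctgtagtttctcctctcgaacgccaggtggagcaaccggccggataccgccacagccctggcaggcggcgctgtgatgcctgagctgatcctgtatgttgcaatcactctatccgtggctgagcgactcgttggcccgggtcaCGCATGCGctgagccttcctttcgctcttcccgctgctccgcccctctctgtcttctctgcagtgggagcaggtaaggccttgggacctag
NDUFS1: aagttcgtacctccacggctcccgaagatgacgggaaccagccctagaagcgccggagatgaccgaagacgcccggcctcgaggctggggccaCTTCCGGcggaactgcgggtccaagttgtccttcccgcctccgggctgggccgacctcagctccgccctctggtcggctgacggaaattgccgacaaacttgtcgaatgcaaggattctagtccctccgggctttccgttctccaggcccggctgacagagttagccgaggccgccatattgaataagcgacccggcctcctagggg
UQCRC2: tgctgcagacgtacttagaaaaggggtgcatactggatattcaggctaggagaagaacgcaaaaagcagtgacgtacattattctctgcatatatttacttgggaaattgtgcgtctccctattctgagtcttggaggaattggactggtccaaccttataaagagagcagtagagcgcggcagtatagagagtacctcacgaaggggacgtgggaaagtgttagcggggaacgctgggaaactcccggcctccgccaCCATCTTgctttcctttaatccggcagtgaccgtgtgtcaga
UQCRFS1: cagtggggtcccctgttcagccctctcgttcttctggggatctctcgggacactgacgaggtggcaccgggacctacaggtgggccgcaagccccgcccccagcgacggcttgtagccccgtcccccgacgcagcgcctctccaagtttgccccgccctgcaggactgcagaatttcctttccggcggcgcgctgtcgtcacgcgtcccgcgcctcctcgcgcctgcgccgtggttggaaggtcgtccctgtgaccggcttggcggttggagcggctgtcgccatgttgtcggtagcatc
NDUFA5: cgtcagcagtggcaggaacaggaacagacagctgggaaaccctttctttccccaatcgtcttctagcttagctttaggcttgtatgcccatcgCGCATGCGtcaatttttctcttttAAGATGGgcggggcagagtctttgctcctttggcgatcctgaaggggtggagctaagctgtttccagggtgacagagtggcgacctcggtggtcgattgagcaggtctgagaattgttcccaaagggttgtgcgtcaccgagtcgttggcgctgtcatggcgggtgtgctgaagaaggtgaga
COX7B2: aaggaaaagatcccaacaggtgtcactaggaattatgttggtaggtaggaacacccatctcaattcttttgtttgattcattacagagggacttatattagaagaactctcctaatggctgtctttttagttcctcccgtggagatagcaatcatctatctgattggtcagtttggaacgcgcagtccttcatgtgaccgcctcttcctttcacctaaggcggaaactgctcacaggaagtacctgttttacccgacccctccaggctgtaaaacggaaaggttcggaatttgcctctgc

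The E-box word stood in the ATP5G1 window, the NRF1 word in those of ATP5G2 and NDUFA5, the ETS word in that of NDUFS1 and the YY1 word in those of UQCRC2 and NDUFA5. The UQCRFS1 and COX7B2 windows held none of the 4 letter strings. The NRF1 word in ATP5G2 and NDUFA5 sits in a palindrome and so reads on both strands. Of 81 human nuclear members 65 matched a RefSeq promoter. Among these, 14 (21.5%) held the NRF1 word, against 6.07% of 15843 protein-coding genes. The ETS word was found in 20 (30.8%), against 16.5%, and the YY1 word in 18 (27.7%), against 7.9%. The E-box was found in 7 (10.8%), against 10.9%. Of the 17 matched members that were lower with MYC siRNA in both human lines, 6 (35.3%) held the NRF1 word, 2 (11.8%) the E-box, 7 (41.2%) the ETS word and 6 (35.3%) the YY1 word. Of the 5 that were higher in both, 2 (40%) held the NRF1 word, 0 the E-box, 1 (20%) the ETS word and 3 (60%) the YY1 word. Of 43 matched members with no shared call, 6 (14%) held the NRF1 word, 5 (11.6%) the E-box, 12 (27.9%) the ETS word and 9 (20.9%) the YY1 word. Thus the NRF1 and YY1 shares were larger, and the E-box and ETS shares smaller, in the members higher in both lines than in those lower in both. The first set holds only 5 members, too few for a conclusion. CYC1 and ATP5B, also lower in every MYC siRNA comparison, had no matched promoter. For the 9 members with more than 1 listed start, a word counted where any of the windows held it. The same rule was used for all protein-coding genes. Where such a member is shown above, the window with most matches is printed. These are matches of letters, with no test and no binding data behind them.

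Library totals were 5663610 to 13191675 reads. The values are read counts scaled by 1 factor per library within a table, called normalised counts below, and log2 changes are on the log2(value + 1) scale. A member is called higher or lower where limma's adjusted p was below 0.05 over all genes of the table. The shares of all genes given as background come from this fit with all libraries. For other methods, other settings and runs that left out a library, no share of all genes is given. The targeted genes moved unevenly. TMEM173, the STING gene, differed by -1.85 ± 0.15 (SE) with the STING sgRNA in MDA-MB-436 and -1.28 ± 0.11 in SUM159PT, by 4.47 ± 0.16 and 4.37 ± 0.12 with the STING ORF, and by -4.14 ± 0.09 with doxycycline in Py230. MYC differed by -0.87 ± 0.04 in SUM159PT with MYC siRNA but only by -0.09 ± 0.03 in MDA-MB-436 (limma adjusted p = 0.0144), and in 4T1 by -0.09 ± 0.04 (limma adjusted p = 0.0683), which is no call. The 4T1 and MDA-MB-436 libraries are therefore named by their siRNA label below. Marker lists moved with some groups. In SUM159PT CDH1, which marks epithelial cells, was at 0 in all Tax-R and parental libraries. Epithelial markers summed to 2064 to 2180.2 in Tax-R against 3054 to 3086 in parental MDA-MB-436 libraries, with 3 of 4 lower and 1 higher. In SUM159PT they summed to 2048 to 2096 against 3035 to 3060.4, with all 3 tested genes lower. Leukocyte markers summed to 257 to 389 against 2118 to 2222 in MDA-MB-436 and to 20.8 to 28.6 against 759 to 811 in SUM159PT, with all 3 tested genes lower in each line. Mesenchymal markers summed to 37971 to 40784 with MYC siRNA against 23752 to 24178 with control siRNA in MDA-MB-436, with 5 of 6 higher. The sums were 69032 to 71942 against 31877 to 32444 in SUM159PT, with 4 of 6 higher, and 36726 to 40988 against 18304 to 18841 in 4T1, with 3 of 4 higher. In the same comparisons leukocyte markers summed to 158 to 194 against 834 to 843 in SUM159PT, where the 1 gene tested was lower, and epithelial markers to 25955 to 27594 against 20358 to 21866 in 4T1, with 5 of 6 higher. The part of these shifts in the results below was not tested. In bulk RNA, fewer cells of a type and less RNA per cell cannot be told apart.

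Across the 10 comparisons more nuclear members were called lower than higher with MYC siRNA in both human lines and with the STING sgRNA. More were higher than lower with doxycycline in Py230, and shares of all genes stand beside each count below. In 4T1 with the MYC siRNA label 14 of 77 were lower and 6 higher, both below the shares of all genes (21.5% and 24.7%). That order turned when 1 control library was left out. Of 83 nuclear names 80 were called at least once, NDUFA12, NDUFA7 and UQCRHL never. The share of all genes called at least once was not computed, so the 80 cannot be read as a trait of the subunits. CYC1, cytochrome c1 of complex III, was called lower in 7 comparisons and higher in 0. ATP5J2, a small membrane subunit of ATP synthase, was called in 8, with 3 higher and 5 lower. Its exons are shared with the readthrough row ATP5J2-PTCD1, so reads could be split between these rows. The widest ranges of change over the comparisons belonged to COX7B2, NDUFV2 and UQCR11. The range of COX7B2 includes the Tax-R comparisons, where it passed the limit only through its parental libraries. NDUFV2 has a near-identical pseudogene copy and read only 9.52 to 156 in human libraries, against 477 to 659 in mouse ones, so its human changes are uncertain.

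**Figure D1:**
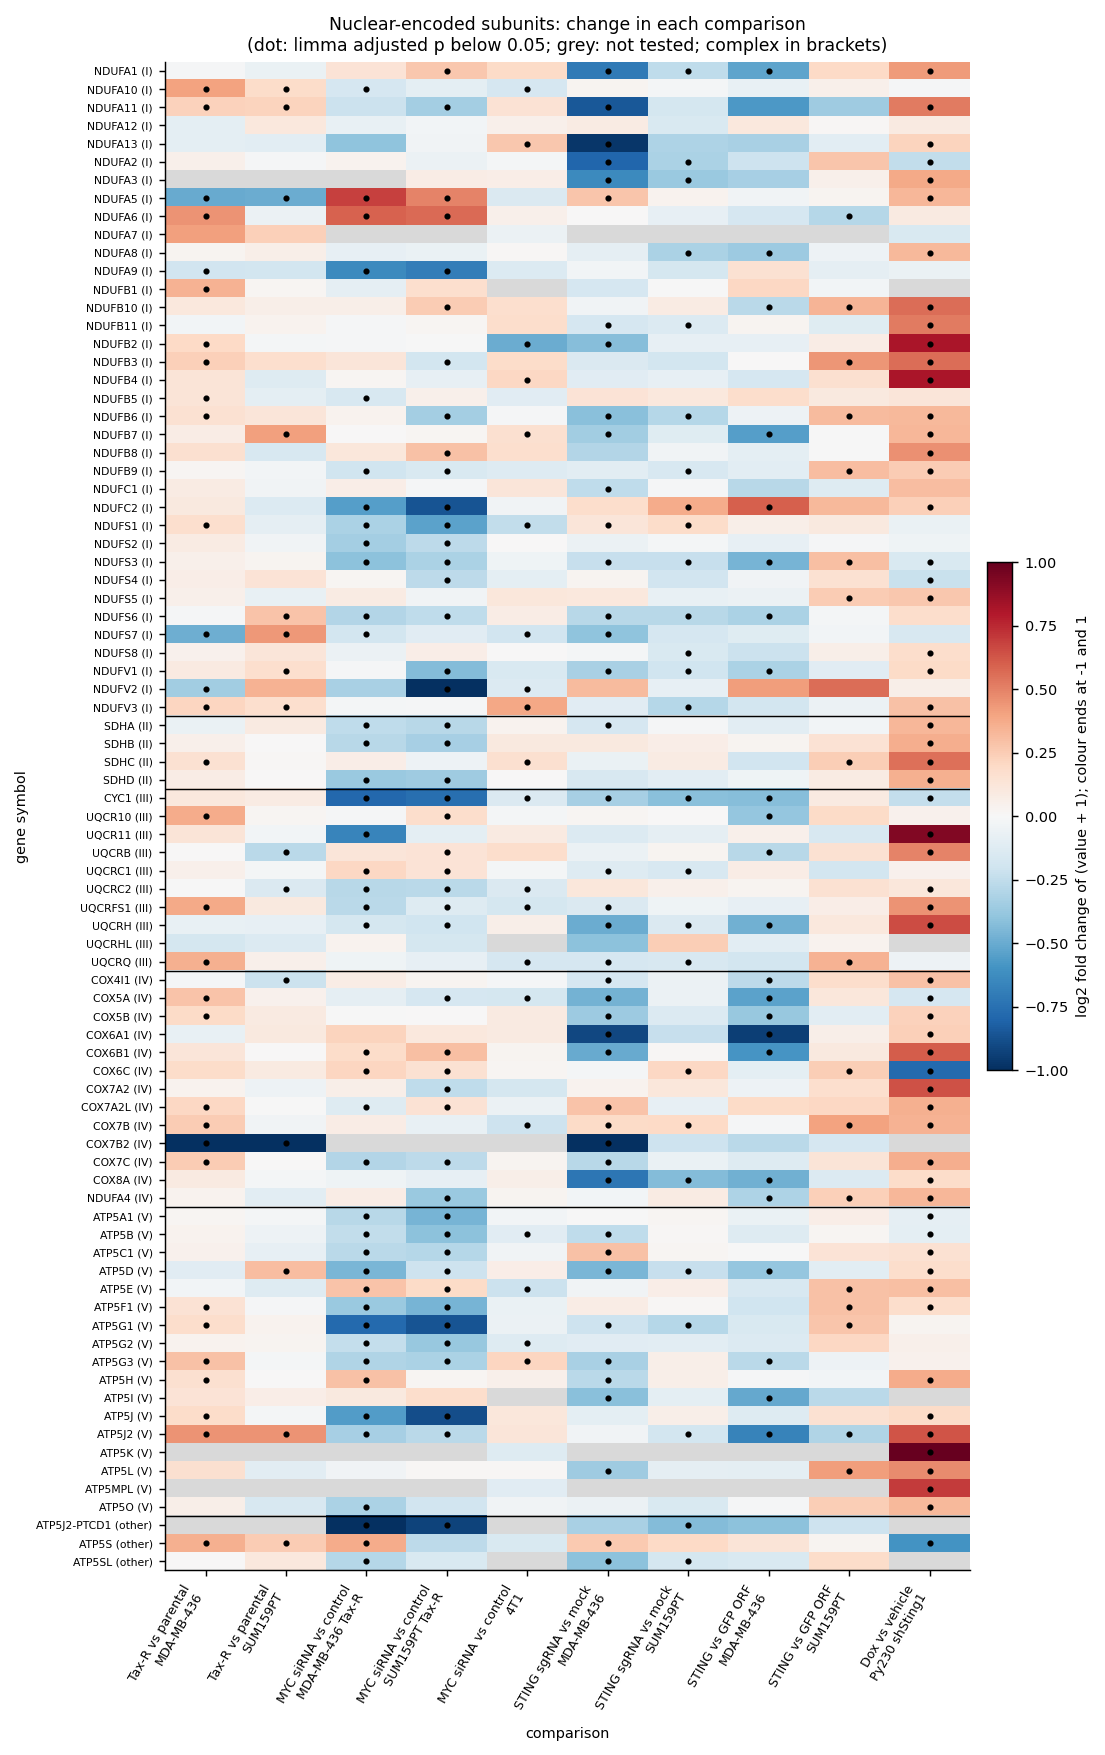
Log2 fold change of each nuclear-encoded subunit (rows, grouped by complex) in each of the 10 comparisons (columns). Dots mark limma adjusted p below 0.05 and grey cells were not tested. CYC1 is blue with a dot in 7 columns, and the Py230 column is mostly red, with 50 of 77 members higher.

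**Figure D2:**
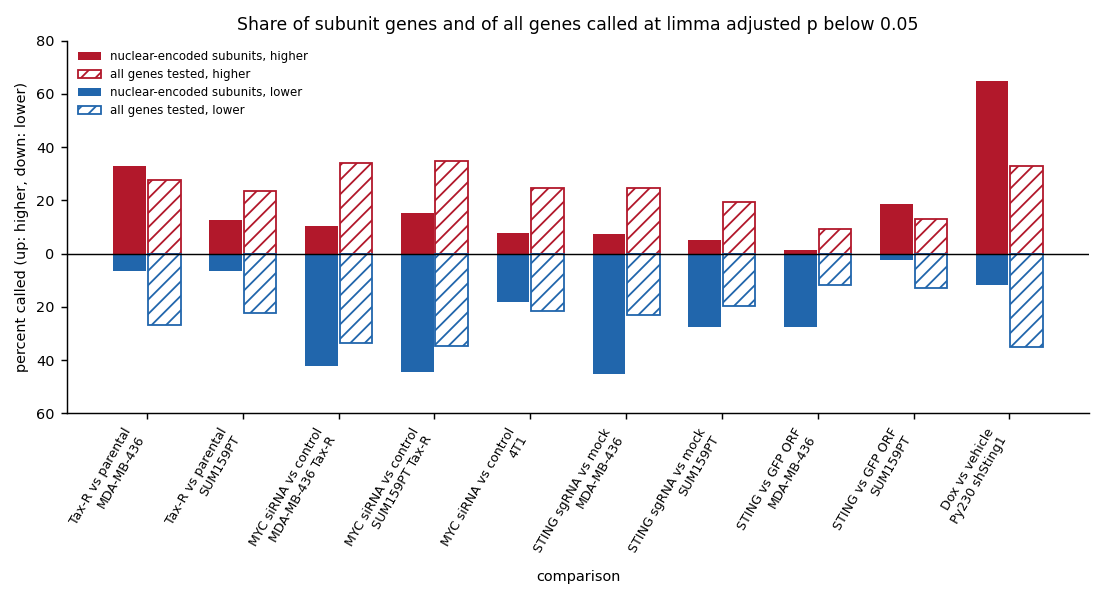
Percent of nuclear-encoded subunits (solid bars) and of all genes tested (hatched bars) called higher (upward) or lower (downward) in each comparison. In Py230 64.9% of subunits were higher, against 32.8% of all genes, while with the STING sgRNA in MDA-MB-436 45% were lower, against 23%.

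In Tax-R cells of MDA-MB-436 treated with MYC siRNA 33 of 78 nuclear members were lower and 8 higher, while limma called 33.7% of 15399 genes lower and 34% higher. The share lower, 42.3%, was above the background and the share higher, 10.3%, below it. In SUM159PT Tax-R cells 35 of 79 were lower and 12 higher, with a background of 34.5% lower and 35% higher. The median change of the members was -0.08 in MDA-MB-436 and -0.11 in SUM159PT, against -0.01 over all genes in each. In both lines 26 of 78 members were lower and 6 higher, beside 26.9% of 14728 genes lower in both and 26.9% higher in both. COX7A2L, involved in assembling supercomplexes, changed by -0.13 in MDA-MB-436 and 0.14 in SUM159PT. Nuclear members took 0.660 ± 0.0126% of reads with MYC siRNA in MDA-MB-436 (SD, n = 4), against 0.744 ± 0.00225% with control siRNA (n = 2), and 0.690 ± 0.00441% against 0.821 ± 0.00689% in SUM159PT. The exact permutation test, two-sided, gave p = 0.0667 in both, which is the smallest this design allows.

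Most ATP synthase members were lower: 11 of 15 members were lower and 2 higher in MDA-MB-436, and 10 of 15 lower and 1 higher in SUM159PT. ATP5B, the catalytic beta subunit, read 4392 and 4333 in MYC siRNA-1 libraries and 4415 and 4388 in MYC siRNA-2 libraries, against 5215 and 5156 in control siRNA libraries of MDA-MB-436, and the groups did not overlap (-0.24 ± 0.02 SE, limma adjusted p = 4.02e-10). In SUM159PT it read 4349 and 4360.3 in MYC siRNA-1 libraries and 4404 and 4243 in MYC siRNA-2 libraries, against 5797 and 5753 in control siRNA libraries (-0.41 ± 0.03 SE, limma adjusted p = 2.84e-15). ATP5G1, whose promoter with an E-box is shown above, read 367 and 362 in MYC siRNA-1 libraries and 360.4 and 363 in MYC siRNA-2 libraries, against 619.9 and 627 in control siRNA libraries of MDA-MB-436 (-0.78 ± 0.06 SE, limma adjusted p = 1.67e-12). All 4 MYC siRNA libraries lay at about the same level and well under both controls, and in SUM159PT the change was -0.86 ± 0.08. ATP5J, the coupling factor of the stalk, read 241 and 220.4 in MYC siRNA-1 libraries and 213 and 225 in MYC siRNA-2 libraries, against 394 and 439 in control siRNA libraries of SUM159PT (-0.89 ± 0.08 SE, limma adjusted p = 1.09e-13). ATP5G2 changed by -0.24 and -0.38 in MDA-MB-436 and SUM159PT. Against this, ATP5E, the small epsilon subunit of the catalytic head, was higher in both lines by 0.28 and 0.19. ATP5H, a stalk subunit, was higher in MDA-MB-436 (0.29 ± 0.05).

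In complex III, CYC1 read 820.3 and 788 in MYC siRNA-1 libraries and 768 and 777 in MYC siRNA-2 libraries, against 1371 and 1344 in control siRNA libraries of MDA-MB-436 (-0.78 ± 0.04 SE, limma adjusted p = 1.44e-15). In SUM159PT it read 980.1 and 950.0 in MYC siRNA-1 libraries and 912 and 917 in MYC siRNA-2 libraries, against 1719 and 1459 in control siRNA libraries (-0.75 ± 0.05 SE, limma adjusted p = 1.04e-17). All siRNA libraries lay below both controls in each line. UQCRC2, a core protein of the complex, changed by -0.28 and -0.27. UQCRFS1, the Rieske iron-sulfur protein, changed by -0.27 in MDA-MB-436 and -0.13 in SUM159PT, where the sign turned to 0.03 with a correction for GC content. UQCR11, a small subunit, was lower in MDA-MB-436 (-0.66 ± 0.11) and not called in SUM159PT (-0.10 ± 0.12). UQCRC1, the other core protein, was higher by 0.20 and 0.14, though the GC correction turned it to -0.07 in MDA-MB-436. Complex II had 3 of 4 members lower in each line, and none higher. SDHD, a membrane anchor, read 249 and 276 in MYC siRNA-1 libraries and 259.9 and 281 in MYC siRNA-2 libraries, against 328 and 364 in control siRNA libraries of MDA-MB-436 (-0.37 ± 0.08 SE, limma adjusted p = 7.3e-05), and changed by -0.35 in SUM159PT.

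Complex I was more divided, with 10 of 34 members lower and 2 higher in MDA-MB-436 and 13 of 35 lower and 5 higher in SUM159PT. NDUFS1, its largest iron-sulfur subunit, read 833 and 819.8 in MYC siRNA-1 libraries and 881 and 812 in MYC siRNA-2 libraries, against 1165 and 1264 in control siRNA libraries of SUM159PT (-0.54 ± 0.05 SE, limma adjusted p = 8.62e-13), and changed by -0.32 in MDA-MB-436. NDUFA9, an accessory subunit, changed by -0.63 and -0.69. NDUFA5, an accessory subunit of the peripheral arm, ran the other way. It read 150.4 and 169.9 in MYC siRNA-1 libraries and 156 and 156 in MYC siRNA-2 libraries, against 100.1 and 95.1 in control siRNA libraries of MDA-MB-436 (0.69 ± 0.10 SE, limma adjusted p = 1.12e-06), and changed by 0.49 in SUM159PT. NDUFA6, another accessory subunit, was higher by 0.59 and 0.57. Complex IV had 2 of 12 lower and 2 higher in MDA-MB-436 and 4 of 12 lower and 3 higher in SUM159PT. COX7C changed by -0.30 and -0.26, and COX6B1, a subunit on the intermembrane side, by 0.19 and 0.30.

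Both siRNAs gave alike counts: siRNA-2 33 lower and 7 higher, siRNA-1 31 lower and 8 higher in MDA-MB-436. The background was 31.4% lower and 32.1% higher for siRNA-2 and 32.2% lower and 32.1% higher for siRNA-1. The direct contrast of siRNA-2 with siRNA-1 called 0 nuclear members in either direction with limma, against a background of 0.0779% higher and 0.117% lower. At an unadjusted p under 0.05 it had 2 higher and 9 lower, edgeR called 1 lower, and DESeq2 called 0. In SUM159PT limma, edgeR and DESeq2 each called 0, with a limma background of 0.0% and 2 higher and 1 lower at an unadjusted p under 0.05. Without siRNA-2 replicate 2 the count higher in SUM159PT was 7 in place of 12.

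In 4T1 with the MYC siRNA label, 14 of 77 nuclear members were lower and 6 higher, beside a background of 21.5% lower and 24.7% higher, and the median change was 0.00. The shares, 18.2% and 7.79%, lay below the background in both directions. These counts rest on single libraries: without control siRNA replicate 1 they were 5 lower and 14 higher, and without siRNA-1 replicate 2 the count lower was 9. The count higher was 10 without siRNA-1 replicate 1, 3 without control replicate 2 and 2 without control replicate 3. Ndufs1 read 830.0, 812 and 783 in MYC siRNA-1 libraries and 779, 815 and 803 in MYC siRNA-2 libraries, against 957, 936 and 963 in control siRNA libraries (-0.24 ± 0.05 SE, limma adjusted p = 8.44e-05), with every siRNA library below every control. Uqcrc2 and Atp5b also had no overlap between groups, at -0.14 and -0.11, while Cyc1 (-0.14), Atp5g2 (-0.13) and Uqcrfs1 (-0.18) overlapped. These 6 genes were the ones lower in all 3 MYC siRNA comparisons, among 73 tested in all 3, beside 11.7% of 9243 genes, so their share was not above the background. No member was higher in all 3, beside 12.7% of genes. Atp5g3, the remaining c subunit gene, was higher in 4T1 (0.22 ± 0.07) and lower in the human lines (-0.30 and -0.32). Ndufv3, a flavoprotein subunit, read 226, 242 and 259.6 in MYC siRNA-1 libraries and 239, 219.7 and 220.1 in MYC siRNA-2 libraries, against 202, 161 and 175 in control siRNA libraries (0.39 ± 0.08 SE, limma adjusted p = 0.000315). Between the siRNAs limma, edgeR and DESeq2 called 0 members, with a limma background of 0.0% and 0 members at an unadjusted p under 0.05. Nuclear members took 0.708 ± 0.0243% of reads with the MYC siRNA label (SD, n = 6), against 0.756 ± 0.0234% with control siRNA (n = 3). The exact permutation test, two-sided, gave p = 0.0595, with 0.0119 the smallest possible.

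**Figure D3:**
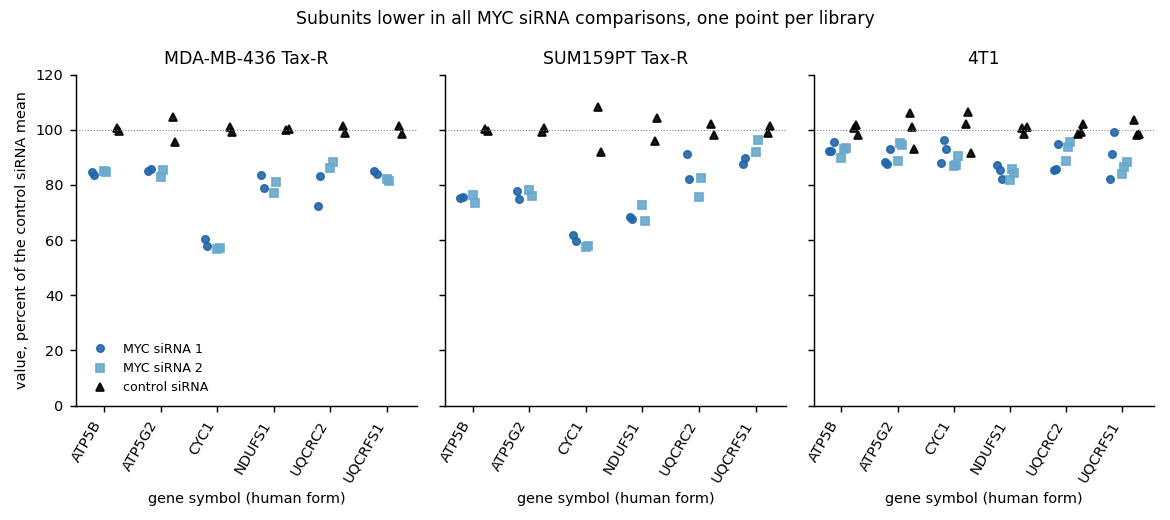
Value of the 6 subunits lower in all 3 MYC siRNA comparisons, as percent of the control siRNA mean, with 1 point per library for MYC siRNA 1, MYC siRNA 2 and control siRNA. All siRNA points of CYC1 lie below both control points in each human line, while in 4T1 the siRNA and control points of Cyc1 overlap.

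The 13 mitochondrially encoded members were analysed in 3 human tables: both Tax-R tables and the MYC siRNA table of MDA-MB-436. With MYC siRNA 8 of 13 were lower and 3 higher, beside the background of 33.7% and 34%. Opposite directions occurred within complex I. MT-ND5, a proton-pumping subunit of complex I, read 15594 and 16050.1 in MYC siRNA-1 libraries and 15758 and 15925 in MYC siRNA-2 libraries, against 13373 and 13351 in control siRNA libraries (0.24 ± 0.02 SE, limma adjusted p = 2.36e-13). MT-ND6, encoded on the other strand of mitochondrial DNA, read 7514 and 6736 in MYC siRNA-1 libraries and 6594 and 6799 in MYC siRNA-2 libraries, against 5747 and 5378 in control siRNA libraries (0.31 ± 0.03 SE, limma adjusted p = 4.94e-10). Both rows lay above both controls in every siRNA library, and MT-CYB, cytochrome b of complex III, was higher by 0.09 ± 0.02, turning to -0.01 after quantile normalization. MT-ATP8, a small ATP synthase subunit, read 162 and 163 in MYC siRNA-1 libraries and 154 and 151 in MYC siRNA-2 libraries, against 194 and 225 in control siRNA libraries (-0.41 ± 0.09 SE, limma adjusted p = 0.000327), and MT-ATP6, the proton channel subunit, changed by -0.23 ± 0.02. MT-ND4 read 21053 and 21235 in MYC siRNA-1 libraries and 21191 and 20854 in MYC siRNA-2 libraries, against 23976 and 24059.8 in control siRNA libraries (-0.19 ± 0.01 SE, limma adjusted p = 2.81e-12). MT-CO1, the catalytic subunit of complex IV, read 43653 and 43106 in MYC siRNA-1 libraries and 43689 and 44991 in MYC siRNA-2 libraries, against 44129 and 43096 in control siRNA libraries, with overlapping groups and no call (0.01 ± 0.01 SE, limma adjusted p = 0.603). MT-ND1 was not called either (0.00, and -0.10 after quantile normalization). MT-ND2 (-0.12), MT-ND3 (-0.14), MT-ND4L (-0.12), MT-CO2 (-0.11) and MT-CO3 (-0.14) were lower, and a correction for transcript length turned MT-ND4L and MT-CO2 to 0.01. Mitochondrial rows took 2.12 ± 0.00763% of reads with MYC siRNA (SD, n = 4), against 2.19 ± 0.0221% with control siRNA (n = 2; exact permutation test, two-sided, p = 0.0667, the smallest possible).

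In Tax-R cells of MDA-MB-436 3 mitochondrially encoded members were higher and 0 lower, beside a background of 27.7% and 26.9%. At an unadjusted p under 0.05 limma had 0 lower, and edgeR and DESeq2 also called 0 lower. The 3 were MT-ND5, at 3281 and 3495 in Tax-R libraries, against 2834 and 3099 in parental libraries (0.19 ± 0.05 SE, limma adjusted p = 0.00501), MT-ND4 (0.14 ± 0.04) and MT-ND6 (0.14 ± 0.04). The parental libraries differed from each other for the abundant rows: MT-CO1 read 84890.5 and 82221 in Tax-R libraries, against 100321 and 76653 in parental libraries, with the Tax-R values between those of the parental pair and no call (-0.07 ± 0.11 SE, limma adjusted p = 0.617). Without parental replicate 2 the count lower was 4, and without either Tax-R library, or with both counted as 1, the count higher was 1. In SUM159PT 3 members were higher and 0 lower, beside a background of 23.5% and 22.1%: MT-ND1 (0.20 ± 0.07), MT-ND2 (0.21 ± 0.07) and MT-ATP6 (0.21 ± 0.07). MT-ND2 and MT-ATP6 went to 0.00 after quantile normalization, and the count was 0 without parental replicate 2 or Tax-R replicate 1 and 1 without parental replicate 1. No mitochondrially encoded member was called in both Tax-R comparisons. Proportions among these rows differed between tables. Within a library MT-ND4 was 2.35 to 2.51 times MT-ND2 in the 6 MYC siRNA table libraries, against 0.0917 to 0.135 times in the 4 libraries of the MDA-MB-436 Tax-R table. Opposite-strand and overlapping mitochondrial genes (MT-ND5 with MT-ND6, MT-ND4L with MT-ND4, MT-ATP8 with MT-ATP6) cannot be fully separated, since the sources used here do not give the strand setting of the counting.

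**Figure D4:**
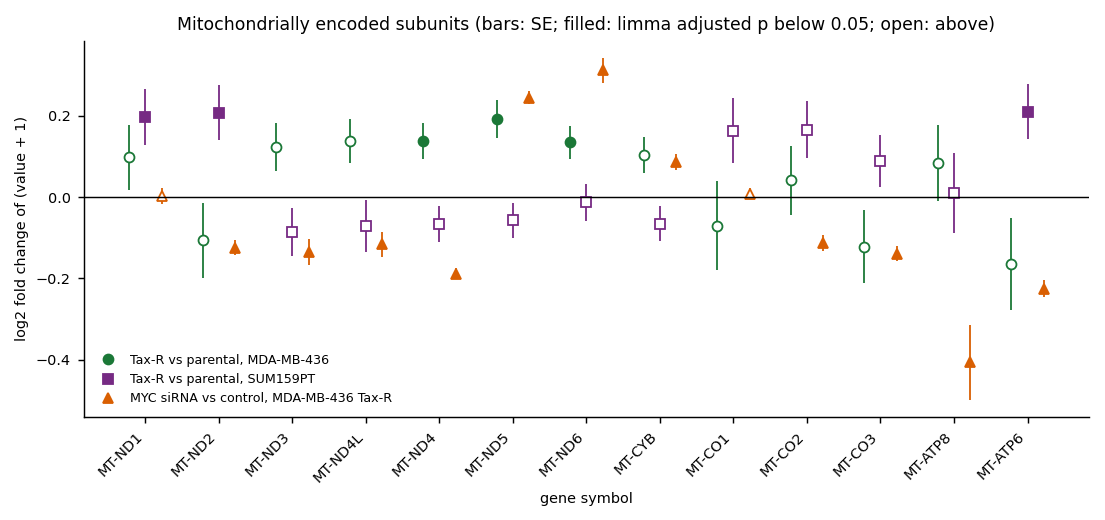
Log2 fold change with SE of the 13 mitochondrially encoded subunits in the 3 comparisons that held them. Filled symbols have limma adjusted p below 0.05. MT-ND5 and MT-ND6 lie highest with MYC siRNA, at 0.24 and 0.31, and MT-ATP8 lowest, at -0.41.

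Among nuclear members, Tax-R MDA-MB-436 cells had 26 of 79 higher and 5 lower than parental cells, beside the background of 27.7% and 26.9% over 19085 genes. The share lower, 6.33%, was under that of all genes. The counts lower here, in complex IV and in SUM159PT include COX7B2, which had to differ, as described below. Complex V had 6 of 15 higher and 0 lower, complex IV 5 of 13 higher and 1 lower, complex III 3 of 10 higher and 0 lower, complex I 10 of 35 higher and 4 lower, and complex II 1 of 4 higher. The count higher was 16 without parental replicate 1 and 17 without Tax-R replicate 2, and the count lower was 3 without either parental library. Both Tax-R libraries differed by less than sampling noise over 18264 genes (chi-square per gene 0.85, against 1.02 to 2.93 in other pairs) but by more over 21 abundant genes (20.9 per gene). Counted as 1 sample, they gave 20 higher and 4 lower. Nuclear members took 0.394 ± 0.00162% of reads in Tax-R and 0.380 ± 0.0115% in parental MDA-MB-436 libraries (SD, n = 2 each). The exact permutation test, two-sided, gave p = 0.333, the smallest possible. In SUM159PT 10 of 79 were higher and 5 lower, beside a background of 23.5% and 22.1%, both shares below the background. Their part of the reads in SUM159PT was 0.410 ± 0.00599% in Tax-R and 0.421 ± 0.0088% in parental libraries (exact permutation test, two-sided, p = 0.333). There the count higher was 6 without parental replicate 1 or Tax-R replicate 2.

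COX7B2, a relative of the complex IV subunit COX7B known mainly from testis, passed the limit on the table mean only through its parental libraries in both lines. It therefore had to differ, and its values are given as a description. It read 10.01 and 4.10 in Tax-R libraries, against 154 and 167 in parental libraries of MDA-MB-436 (log2 change -4.43). In SUM159PT it read 3.07 and 3.96 in Tax-R libraries, against 233 and 209 in parental libraries (log2 change -5.62). COX7B itself was higher in MDA-MB-436 (0.26 ± 0.05) and not called in SUM159PT (-0.04 ± 0.09). NDUFA5 was the other member lower in both lines. It read 544 and 542 in Tax-R libraries, against 748 and 798 in parental libraries of MDA-MB-436 (-0.51 ± 0.05 SE, limma adjusted p = 4.06e-06), and 577 and 572 in Tax-R libraries, against 811 and 810.0 in parental libraries of SUM159PT (-0.50 ± 0.04 SE, limma adjusted p = 1.73e-05). The drop was about the same in each line, with no overlap. Of 79 members 2 were lower in both lines and 5 higher, beside 12.6% and 13% of 17892 genes, both below the background. COX7B2, which had to differ, is 1 of the 2, so NDUFA5 is the only other member lower in both. Higher in both lines were ATP5J2 (0.45 and 0.45), NDUFA10, an accessory subunit (0.40 and 0.18), ATP5S, a coupling factor B homologue (0.35 and 0.26), NDUFV3 (0.21 and 0.17) and NDUFA11 (0.23 and 0.22). The NDUFA11 call was lost in each of the runs that left out 1 library, in both lines. NDUFS7, which carries an iron-sulfur cluster near the coenzyme Q site, was lower in MDA-MB-436 (-0.49 ± 0.09) and higher in SUM159PT (0.44 ± 0.12). UQCRFS1 read 978 and 934 in Tax-R libraries, against 729.6 and 742 in parental libraries of MDA-MB-436 (0.38 ± 0.04 SE, limma adjusted p = 1.76e-05), and UQCRB, a small complex III subunit, read 1043 and 1014 in Tax-R libraries, against 1260.4 and 1219 in parental libraries of SUM159PT (-0.27 ± 0.04 SE, limma adjusted p = 0.000549).

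With the STING sgRNA in MDA-MB-436, 36 of 80 nuclear members were lower and 6 higher than in mock cells, beside a background of 23% lower and 24.8% higher over 15305 genes. The share lower, 45%, was above that of all genes, and the median change was -0.15, against 0.01 over all genes. Nuclear members took 0.684 ± 0.0189% of reads with the STING sgRNA (SD, n = 4), against 0.762 ± 0.00198% in mock libraries (n = 2). The exact permutation test, two-sided, gave p = 0.0667, the smallest possible. Mesenchymal markers summed to 32367 to 34858 with the STING sgRNA against 28673 to 28984 in mock libraries, with 5 of 6 higher and 1 lower. Epithelial markers summed to 5581 to 5902 against 6538 to 6545, with all 3 tested lower and KRT19 and EPCAM at 0 in mock libraries. Their part was not tested. Complex IV had 8 of 13 lower, complex I 14 of 35, complex V 7 of 15, complex III 5 of 10 and complex II 1 of 4. COX8A, a small complex IV subunit, read 159 and 140.2 in C2 libraries and 155 and 162 in C1 libraries, against 284 and 227 in mock libraries (-0.72 ± 0.10 SE, limma adjusted p = 9.59e-07). COX6A1, another nuclear complex IV subunit, read 84.0 and 73.7 in C2 libraries and 80.2 and 107 in C1 libraries, against 176 and 148 in mock libraries (-0.91 ± 0.13 SE, limma adjusted p = 1.82e-06). All 4 sgRNA libraries lay below both mock libraries for each gene. NDUFA2, an accessory subunit of complex I, read 115 and 116 in C2 libraries and 99.2 and 113 in C1 libraries, against 186 and 198 in mock libraries (-0.79 ± 0.11 SE, limma adjusted p = 6.91e-07), and NDUFA1, a membrane arm subunit, changed by -0.71 ± 0.11. UQCRH, the hinge protein of complex III, whose row shares near-identical sequence with UQCRHL, changed by -0.49 ± 0.05. ATP5D, the delta subunit of the ATP synthase head, changed by -0.46 ± 0.06, and a correction for GC content turned it to 0.05. ATP5C1, its gamma shaft, was higher (0.29 ± 0.05). Calls against mock were 36 lower and 6 higher for C2 and 27 lower and 3 higher for C1, with backgrounds of 22.9% lower and 24.2% higher for C2 and 16.5% lower and 18.8% higher for C1. The direct C2 minus C1 contrast called 0 nuclear members with limma, edgeR or DESeq2, with a limma background of 0.131% higher and 0.666% lower, and 5 higher and 9 lower at an unadjusted p under 0.05. Without mock replicate 1 the count higher was 2.

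In SUM159PT the STING sgRNA groups together had 22 of 80 nuclear members lower and 4 higher, beside a background of 19.8% and 19.3% of 15168 genes. Nuclear members took 0.850 ± 0.0501% of reads with the STING sgRNA (SD, n = 4), against 0.881 ± 0.0229% in mock libraries (n = 2). The exact permutation test, two-sided, gave p = 0.533, with 0.0667 the smallest possible. Without mock replicate 1 the count lower was 7, and without mock replicate 2 the count higher was 2. The groups differed from each other. C2 had 39 lower and 4 higher against mock, with a background of 22.7% and 21.6%, and C1 had 2 lower and 3 higher, with a background of 10.9% and 12.1%. In the direct contrast of C2 with C1, whose difference uses no mock value though mock libraries enter the estimate of the spread, 37 of 80 members were lower and 0 higher, while 11.4% of all genes were lower and 8.53% higher. At an unadjusted p under 0.05 limma had 3 higher there, and edgeR and DESeq2 called 0 higher. The median C2 minus C1 change was -0.16, against 0.00 over all genes. The lower members included 17 of 35 in complex I, 7 of 13 in complex IV, 8 of 15 in complex V, 4 of 10 in complex III and 1 of 4 in complex II. edgeR called 35 lower and DESeq2 17, with no share of all genes given for either. The count was 24 without C1 replicate 1, 22 without C1 replicate 2 and 17 without C2 replicate 2, and the count higher was 1 without C2 replicate 1. The count lower was 19 with a correction for transcript length and 0 with no filter on low values.

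COX8A read 201 and 193 in C2 libraries and 379 and 339 in C1 libraries, against 394 and 326 in mock libraries of SUM159PT, so that C1 overlapped mock and C2 lay below both (C2 minus C1 -0.86 ± 0.09 SE, limma adjusted p = 9.32e-09). COX6A1 read 118 and 105 in C2 libraries and 221 and 209 in C1 libraries, against 212 and 156 in mock libraries (C2 minus C1 -0.94 ± 0.12 SE, limma adjusted p = 5.64e-07). NDUFA1 read 226 and 213 in C2 libraries and 349 and 373 in C1 libraries, against 338 and 334 in mock libraries (C2 minus C1 -0.71 ± 0.09 SE, limma adjusted p = 9.81e-08). NDUFS6, a small iron-sulfur fraction subunit of complex I, read 1045 and 1059 in C2 libraries and 1423 and 1525 in C1 libraries, against 1499 and 1524 in mock libraries (C2 minus C1 -0.49 ± 0.05 SE, limma adjusted p = 5.76e-09). In each of these the C2 libraries stood apart and the C1 libraries lay near mock. CYC1 was lower in both groups. It read 1309.6 and 1252 in C2 libraries and 1569.6 and 1517 in C1 libraries, against 1934 and 1828 in mock libraries, with the change against mock at -0.55 in C2 and -0.28 in C1. NDUFB8 (-0.85) and NDUFA13 (-0.84), both complex I accessory subunits, also had large C2 minus C1 differences, NDUFA13 from a low level. TMEM173 averaged 96.7 ± 5.76 in C2 and 105 ± 13.7 in C1, against 245 ± 22.6 in mock libraries (SD, n = 2 each), so C2 and C1 overlapped for the targeted gene. Summed mesenchymal markers read 29378 to 30276 in C2 and 29198 to 29429 in C1, against 23533 to 23773 in mock libraries. With C1 and C2 together against mock, 3 of 6 were higher and 2 lower (median 0.07), so the list did not move as one. The part of these markers was not tested.

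Lower in both human lines with the STING sgRNA were 16 of 80 members, beside 9.94% of 14457 genes, and 2 were higher in both, beside 8.56%. In SUM159PT these calls set the mean of C1 and C2 against mock, though few members were lower in C1 alone, as given above. UQCRH there read 916 and 928 in C2 libraries and 1256 and 1269 in C1 libraries, against 1225 and 1162 in mock libraries. With DESeq2 the SUM159PT count lower was 8. The 16 were NDUFA1, NDUFA2, NDUFA3, NDUFB6, NDUFB11, NDUFS3, NDUFS6 and NDUFV1 of complex I, CYC1, UQCRC1, UQCRH and UQCRQ of complex III, COX8A of complex IV, ATP5D and ATP5G1 of complex V, and ATP5SL, now known as a complex I assembly protein. CYC1 changed by -0.33 and -0.42, NDUFV1, the flavin-bearing entry point of NADH electrons, by -0.33 and -0.20, and NDUFS3 by -0.23 and -0.23. After the GC correction UQCRC1 turned to 0.11 and NDUFB11 to 0.08 in MDA-MB-436. COX7B was higher in both lines (0.19 and 0.20), as was NDUFS1 (0.12 and 0.19), which turned to -0.05 in MDA-MB-436 with that correction.

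**Figure D5:**
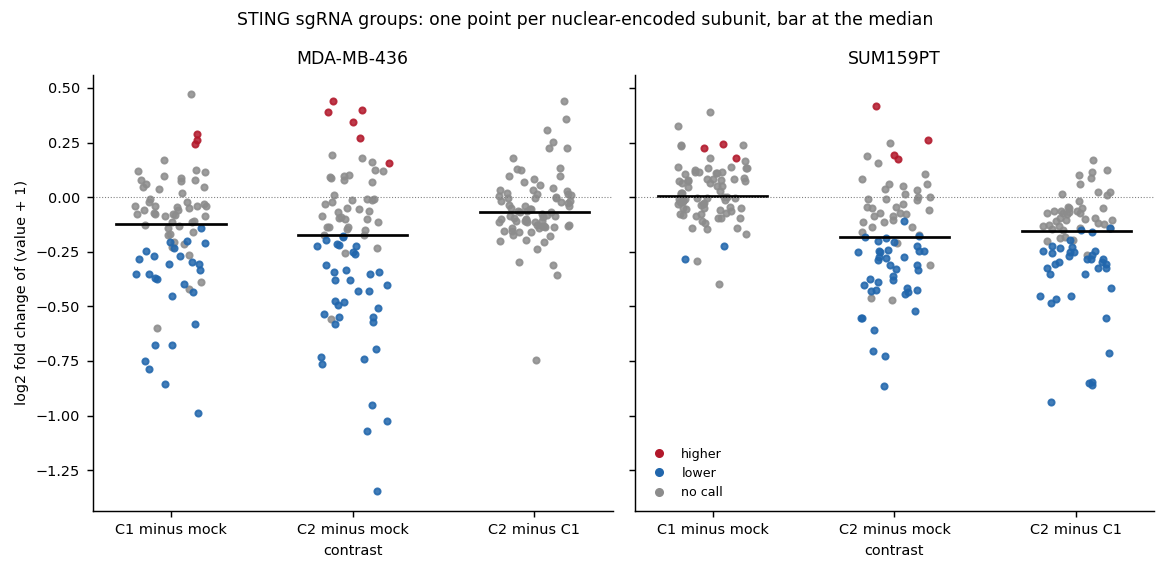
Log2 fold change of each nuclear-encoded subunit in C1 minus mock, C2 minus mock and C2 minus C1, for MDA-MB-436 (left) and SUM159PT (right), with a bar at the median and calls in colour. In SUM159PT 37 points are called lower in C2 minus C1, and in MDA-MB-436 0 are.

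When the STING ORF was added to cells carrying the STING sgRNA, more members were lower in MDA-MB-436 and more higher in SUM159PT. In MDA-MB-436 22 of 80 nuclear members were lower and 1 higher than with the GFP ORF, beside a background of 11.9% lower and 9.2% higher. In SUM159PT 2 were lower and 15 higher, beside a background of 12.8% and 13.2%. The median changes were -0.13 and 0.09, and the difference between lines was not tested. Leaving out 1 library at a time gave medians of -0.186 to -0.113 in MDA-MB-436 and 0.0689 to 0.138 in SUM159PT. Nuclear members took 0.689 ± 0.00601% of reads with the STING ORF, against 0.745 ± 0.015% with the GFP ORF in MDA-MB-436 (SD, n = 2 each). In SUM159PT they took 0.995 ± 0.0382% against 0.961 ± 0.0168%. The exact permutation test, two-sided, gave p = 0.333, the smallest possible, and p = 0.667. Mesenchymal markers summed to 20744 to 21089.5 with the STING ORF against 25668 to 25675 with the GFP ORF in SUM159PT, with 4 of 6 lower and 1 higher. Epithelial markers summed to 4648 to 4851 against 6165 to 7030.0 in MDA-MB-436, with 2 of 3 lower. The mesenchymal sum was 19985 to 20711 against 22944 to 24302 in MDA-MB-436, with 2 of 6 lower and 1 higher, and the epithelial sum 9314 to 9852 against 11048 to 11312 in SUM159PT, with 1 of 2 lower. The part of these shifts was not tested. The counts of members called rest on few libraries. In MDA-MB-436 the count lower was 8 without GFP ORF replicate 1 and 12 without either STING ORF library, and the count higher was 0 without STING ORF replicate 2. In SUM159PT the count higher was 1 without either GFP ORF library and 28 without STING ORF replicate 2, and the count lower was 8 without STING ORF replicate 1, 1 without STING ORF replicate 2 and 0 without either GFP ORF library. Complex IV had 7 of 13 lower in MDA-MB-436, complex I 7 of 35, complex III 4 of 10 and complex V 4 of 15. COX6A1 read 64.9 and 59.3 in STING ORF libraries, against 152 and 94.4 in GFP ORF libraries of MDA-MB-436 (-0.94 ± 0.19 SE, limma adjusted p = 0.000473), with the GFP ORF pair far apart. ATP5J2 was the sole member of 80 lower in both lines, beside 4.34% of 14081 genes, and 0 were higher in both, beside 3.15%. It read 275 and 243 in STING ORF libraries, against 433 and 392 in GFP ORF libraries of MDA-MB-436 (-0.67 ± 0.11 SE, limma adjusted p = 2.04e-05), and 420.2 and 401 in STING ORF libraries, against 542 and 473 in GFP ORF libraries of SUM159PT (-0.30 ± 0.10 SE, limma adjusted p = 0.0276). NDUFC2, a membrane arm subunit of complex I, was the member higher in MDA-MB-436, at 159 and 197 in STING ORF libraries, against 117 and 115 in GFP ORF libraries (0.60 ± 0.14 SE, limma adjusted p = 0.00254). In SUM159PT COX7B read 1429 and 1430.2 in STING ORF libraries, against 1052 and 1109.9 in GFP ORF libraries (0.40 ± 0.08 SE, limma adjusted p = 0.000283), NDUFB3 changed by 0.44 ± 0.10 and ATP5L, the g subunit at the ATP synthase dimer face, by 0.42 ± 0.09. NDUFA4, a complex IV subunit first assigned to complex I, changed by -0.31 in MDA-MB-436 and 0.24 in SUM159PT. NDUFB10 changed by -0.27 and 0.34, and NDUFS3 by -0.46 and 0.30.

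Doxycycline in Py230 cells with the Sting1 shRNA gave the largest share of higher members among the 10 comparisons. There 50 of 77 nuclear members were higher and 9 lower than with vehicle, beside a background of 32.8% higher and 35.1% lower over 14461 genes. The median change was 0.25, against -0.01 over all genes. All 4 complex II subunits were higher, 10 of 12 in complex IV, 11 of 16 in complex V, 20 of 35 in complex I and 5 of 9 in complex III. The count lower was 3 without doxycycline replicate 2 and 4 without vehicle replicate 2 or 3. Nuclear members took 0.683 ± 0.0178% of reads, against 0.596 ± 0.00349% with vehicle (SD, n = 3 each; exact permutation test, two-sided, p = 0.1, the smallest possible). Doxycycline is itself known to inhibit mitochondrial translation, and its part was not tested.

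Atp5k, the mouse name of the ATP synthase e subunit, read 103, 90.6 and 107 in doxycycline libraries, against 54.4, 44.8 and 50.1 in vehicle libraries (0.997 ± 0.14 SE, limma adjusted p = 1.28e-06). Uqcr11 read 155, 148 and 159 in doxycycline libraries, against 82.1, 86.0 and 74.6 in vehicle libraries (0.92 ± 0.11 SE, limma adjusted p = 1.15e-07). Sdhc, a membrane anchor of succinate dehydrogenase, read 872, 825 and 892 in doxycycline libraries, against 562, 579 and 626 in vehicle libraries (0.55 ± 0.06 SE, limma adjusted p = 5.63e-09), and Sdha, Sdhb and Sdhd changed by 0.33, 0.36 and 0.35. Ndufb2 read 88.1, 105 and 99.5 in doxycycline libraries, against 46.9, 54.6 and 63.9 in vehicle libraries (0.82 ± 0.15 SE, limma adjusted p = 2.87e-05), and Cox7a2 changed by 0.64 ± 0.08. For each of these genes every doxycycline library lay above every vehicle library. Cox6c, 1 of the 2 lower members of complex IV, read 346, 340.5 and 332 in doxycycline libraries, against 565, 582 and 597 in vehicle libraries (-0.77 ± 0.06 SE, limma adjusted p = 5.11e-11). Cyc1 read 786, 754 and 844 in doxycycline libraries, against 906, 918 and 991 in vehicle libraries (-0.24 ± 0.06 SE, limma adjusted p = 0.0005), again with no overlap. Atp5s, Ndufa2 and Atp5b changed by -0.59, -0.25 and -0.10. In the same libraries Myc averaged 994 ± 28.3 with doxycycline and 3108 ± 293 with vehicle (SD, n = 3 each; -1.64 ± 0.05 SE, limma adjusted p = 1.41e-18). The summed mesenchymal list read 59366 to 69179 against 43485 to 45017, with 3 of 6 higher and 0 lower. Their part in the subunit changes was not tested.

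Genes that build and supply the complexes were read beside the subunits, and each count is set against the share of all genes given above for its comparison. Mitochondrial ribosomal proteins were lower in 67 of 76 with MYC siRNA in MDA-MB-436 (2 higher, median -0.57, background 33.7% lower) and in 60 of 75 in SUM159PT (5 higher, median -0.56, background 34.5%). In 4T1 30 of 76 were lower (2 higher, median -0.13, background 21.5%). In Py230 28 of 76 were lower and 11 higher, where the background of 35.1% lower is near the share seen. With the STING sgRNA in MDA-MB-436 26 of 77 were higher and 13 lower (background 24.8% and 23%), while in SUM159PT 2 of 76 were higher and 35 lower (background 19.3% and 19.8%). With the STING ORF 14 of 77 were lower and 1 higher in MDA-MB-436 (background 11.9% and 9.2%), and 2 of 76 lower and 27 higher in SUM159PT (background 12.8% and 13.2%). In Tax-R cells 31 of 77 were higher and 6 lower in MDA-MB-436 (background 27.7% and 26.9%), and 19 of 77 higher and 4 lower in SUM159PT, where the count higher is near the background of 23.5%. MRPL12, of the large mitoribosomal subunit, was lower with the STING sgRNA in MDA-MB-436 (-1.05 ± 0.15) and SUM159PT (-1.14 ± 0.13).

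With MYC siRNA the background of genes lower was 33.7% in MDA-MB-436, 34.5% in SUM159PT and 21.5% in 4T1. Complex I assembly factors were lower in 13, 11 and 6 of 15 in these lines, with 0 higher in each. TMEM126B, part of the membrane arm assembly complex, changed by -1.18 ± 0.09 in MDA-MB-436 and -1.31 ± 0.11 in SUM159PT. Assembly factors of complexes II to V were lower in 16 of 31, 14 of 32 and 8 of 31, with 4, 7 and 1 higher. BCS1L, which inserts the Rieske protein, changed by -1.13 and -1.17 in the human lines. Genes of mitochondrial DNA maintenance and transcription were lower in 11 of 13, 9 of 13 and 8 of 12, with 1, 1 and 0 higher. TFAM, which packages and transcribes mitochondrial DNA, changed by -1.20 ± 0.06 and -1.67 ± 0.11 in the human lines. Genes of mitochondrial RNA processing and stability were lower in 16 of 18, 14 of 18 and 10 of 17, with 1, 2 and 1 higher. PNPT1, polynucleotide phosphorylase, changed by -1.30 ± 0.07 and -1.61 ± 0.11. Coenzyme Q synthesis genes were lower in 10, 9 and 5 of 13, with 2, 3 and 1 higher. In the tricarboxylic acid cycle 8 of 19 were lower and 8 higher in MDA-MB-436, 11 of 19 lower and 7 higher in SUM159PT, and 9 of 17 lower and 2 higher in 4T1. PC, pyruvate carboxylase, was higher by 1.02 and 1.41 in the human lines. Regulators of mitochondrial gene expression were lower in 8 of 10 and higher in 2 in MDA-MB-436 (median -0.42), 4 lower and 4 higher in SUM159PT (median -0.07), and 2 of 9 lower and 3 higher in 4T1. TFEB, a regulator of lysosomal and mitochondrial genes, was among the higher ones, by 1.66 and 1.73 in the human lines.

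In Tax-R cells complex I assembly factors were higher in 9 of 15 in MDA-MB-436 and 6 of 15 in SUM159PT, with 1 lower in each, beside a background of 27.7% and 23.5% higher. Assembly factors of complexes II to V were higher in 15 of 32 and lower in 1 in MDA-MB-436, and higher in 7 of 32 and lower in 2 in SUM159PT, where the median was 0.00. SDHAF3, an assembly factor of complex II, was higher by 0.66 and 0.48. Genes of mitochondrial DNA maintenance and transcription were higher in 5 and 7 of 13, with 1 lower in each. MTERF1, a transcription termination factor of mitochondrial DNA, was higher in both lines (1.46 ± 0.05 and 1.52 ± 0.05). With the STING sgRNA, mitochondrial RNA processing genes were higher in 12 of 18 and lower in 2 in MDA-MB-436 (background 24.8% and 23%), and higher in 0 and lower in 4 in SUM159PT (background 19.3% and 19.8%). In Py230, with a background of 32.8% higher and 35.1% lower, complex I assembly factors were lower in 7 of 15 and higher in 3. Those of complexes II to V were lower in 7 of 31 and higher in 8 (median 0.01), Cox11, a copper-delivery factor for complex IV, having the largest fall (-1.32 ± 0.12). Mitochondrial RNA processing genes were lower in 12 of 17 and higher in 3 there, and Pnpt1 changed by -1.83 ± 0.05.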

How the data were processed

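Total RNA, purified with the Maxwell RSC simplyRNA Cells kit per the labels' protocols, was sequenced from 55 libraries. The deposited signal values hold reads per gene after scaling by the authors, with a single factor for every library of a table, as the values themselves show. HISAT2, featureCounts, StringTie and DESeq2 are named by the submitters' processing notes with no version, and no genome build is given in the sources used here. Dividing by the step of each column gave whole reads for 100% of values within 0.05. Each table was analysed alone: values were transformed to log2(value + 1), genes with a mean of at least 10 were kept, and limma 3.58.1 (trend, R 4.3.3) was fitted with Benjamini-Hochberg adjustment over all genes and a threshold of 0.05. With 2 perturbed groups, their mean was set against the control, and the groups were also set against each other. edgeR 4.0.16 and DESeq2 1.42.0 on recovered reads, other pseudocounts, filters, scalings, a replicate block and leaving out each library were alternatives. Tests were tried on simulated data.

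Members and gene lists were chosen with earlier results of these data known. Named genes were all mitochondrially encoded members, the largest called rise and fall per complex and comparison, members called alike in every comparison of 1 kind, the 3 widest ranges, up to 2 genes per list and the targeted genes. Others, such as COX7B in the Tax-R comparisons, were named after their values were seen.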

Additional observations from a re-analysis of the deposited data

Results flagged for a closer look

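The SUM159PT STING sgRNA groups differed in the direct contrast, with 37 of 80 nuclear members lower in C2 than in C1 (limma, adjusted p below 0.05), beside 11.4% of all genes. The count was 17 with DESeq2 and 0 with no filter on low values, settings for which no share of all genes is given.

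Several effects ran in opposite directions in the lines compared, and these differences were not tested. NDUFS7 changed by -0.49 in MDA-MB-436 and 0.44 in SUM159PT in Tax-R against parental cells. With MYC siRNA, COX7A2L changed by -0.13 in MDA-MB-436 and 0.14 in SUM159PT, and ATP5G3 by -0.30 in MDA-MB-436, -0.32 in SUM159PT and 0.22 in 4T1. The 4T1 groups overlapped for Atp5g3, with 734 in a MYC siRNA-1 library and 802 in a control siRNA library. With the STING ORF, the nuclear median was -0.13 in MDA-MB-436 and 0.0863 in SUM159PT. In the same comparison NDUFA4 changed by -0.31 and 0.24, NDUFB10 by -0.27 and 0.34, and NDUFS3 by -0.46 and 0.30 in MDA-MB-436 and SUM159PT.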

How the results depend on the processing

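Counts in this section stand without the share of all genes under the same setting. A smaller count therefore cannot be read as a loss particular to the members. A pseudocount of 4 and edgeR moved no count of members against controls, and none in the SUM159PT C2 minus C1 contrast, by more than 1.5 times. In the MDA-MB-436 contrast of siRNA-2 with siRNA-1 edgeR called 1 nuclear member lower, against 0 with limma. With DESeq2, nuclear counts were 7 higher and 3 lower in Tax-R MDA-MB-436 (mitochondrial 1 higher) and 1 higher and 3 lower in Tax-R SUM159PT. They were 5 higher with MYC siRNA in SUM159PT, 3 higher with the STING sgRNA in MDA-MB-436, 2 higher and 8 lower in SUM159PT, and 17 lower in C2 minus C1. For the STING ORF they were 0 higher and 6 lower in MDA-MB-436 and 7 higher and 0 lower in SUM159PT, and 2 were lower in Py230. With no filter they were 6 higher in Tax-R SUM159PT, 8 lower in 4T1, 10 lower with the STING sgRNA in SUM159PT, 0 lower in C2 minus C1, 0 higher and 3 lower with the STING ORF in MDA-MB-436, and 2 higher and 0 lower in SUM159PT; mitochondrial counts higher were 0 in both Tax-R lines. Quantile normalization gave 8 lower in Tax-R SUM159PT and 3 lower in Py230, with mitochondrial counts of 1 lower in each Tax-R line and 0 higher in SUM159PT. It turned MT-ATP6 and MT-ND2 to 0.0 in Tax-R SUM159PT, and MT-CYB to -0.0115 and MT-ND1 to -0.0969 with MYC siRNA.

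Corrections for GC content and transcript length, and counting the Tax-R MDA-MB-436 pair as 1, were chosen after seeing the data. GC correction gave 16 higher in Tax-R SUM159PT, 2 higher with the STING sgRNA in SUM159PT, and 2 and 23 higher with the STING ORF in MDA-MB-436 and SUM159PT; mitochondrial counts higher were 6 and 5 in Tax-R MDA-MB-436 and SUM159PT. It turned UQCRC1 to -0.0704 (MYC siRNA, MDA-MB-436), UQCRFS1 to 0.0266 (MYC siRNA, SUM159PT), and NDUFS1 to -0.0455, ATP5D to 0.0511, UQCRC1 to 0.107 and NDUFB11 to 0.0771 (STING sgRNA, MDA-MB-436). Length correction gave 15 higher with MYC siRNA in MDA-MB-436 (mitochondrial 5 higher, 3 lower; MT-CO2 0.00835, MT-ND4L 0.00712), 12 higher and 8 lower with the STING sgRNA in SUM159PT, 2 higher and 19 lower in C2 minus C1, and 14 and 4 lower with the STING ORF in MDA-MB-436 and SUM159PT. Counting the pair as 1 gave 1 mitochondrial member higher. Median changes of the members were marked as moved in 7 cases with the GC correction and as held in 4. With the length correction 5 moved and 6 held, and with quantile normalization 2 moved and 11 held. Among the runs that left out 1 library, 9 medians moved and 60 held. The cause of these moves was not tested. Same-numbered libraries did not deviate together in every pair (correlations -0.192 to 0.293). The largest correlations were in the ORF comparisons, 0.209 in MDA-MB-436 and 0.293 in SUM159PT, so a pairing there remains possible. The replicate block gave 5 mitochondrial members higher and 2 lower in Tax-R MDA-MB-436 and 5 nuclear lower with the STING ORF in SUM159PT. It is given here alone.

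Leaving out 1 library at a time gave 16 to 24 nuclear higher and 3 to 4 lower in Tax-R MDA-MB-436 (mitochondrial 1 to 4 and 0 to 4), and 6 to 9 and 4 to 5 in Tax-R SUM159PT (mitochondrial 0 to 4 and 0 to 0). With MYC siRNA it gave 7 to 11 and 27 to 33 in MDA-MB-436, 7 to 11 and 32 to 35 in SUM159PT, and 2 to 14 and 5 to 14 in 4T1. With the STING sgRNA it gave 2 to 7 and 28 to 38 in MDA-MB-436, 2 to 5 and 7 to 21 in SUM159PT, and 0 to 1 and 17 to 38 in C2 minus C1. With the STING ORF it gave 0 to 1 and 8 to 23 in MDA-MB-436 and 1 to 28 and 0 to 8 in SUM159PT, and in Py230 44 to 50 and 3 to 8. Where a group kept 1 library, that library was assumed to vary like the others. Of 151 named calls 87 held in every such run and 64 in all runs.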
